A study of Mus musculus with 6 samples.

Results

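The data cover 9 mouse genes that make, bind, sense or break down retinoic acid: Aldh1a1, Aldh1a2, Aldh1a3, Crabp1, Crabp2, Rbp4, Rbp7, Rarb and Cyp26b1. They were picked by symbol, with earlier results of these libraries known, from the 24346 gene symbols listed for each library, and all 9 were found. Because the comparison of mutant with fl/fl was in view when they were picked, their differences between the groups are given below as a description, with no p-value. RNA from mandibular condylar cartilage, the cartilage of the jaw joint, was sequenced in 3 mutant libraries and 3 fl/fl libraries. The study's title describes a deletion of Ihh, the gene of the secreted signal Indian hedgehog, in craniofacial neural crest cells. The mutant libraries carry the genotype label mutant, and the fl/fl libraries carry the label control. The floxed allele that gives the control group its name, the Cre driver of the mutants, and the strain, age and sex of the mice are not described further in the sources used here. The labels do not say whether libraries of one group are separate animals or pools, so any p-value here measures only the spread between these libraries, which may be technical.

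Retinoic acid is made from vitamin A in 2 oxidation steps. Retinol, carried in blood by the protein of Rbp4, is first oxidised to retinaldehyde, and the retinaldehyde dehydrogenases encoded by Aldh1a1, Aldh1a2 and Aldh1a3 then turn retinaldehyde into retinoic acid. Inside cells the small proteins of Crabp1 and Crabp2 bind retinoic acid, that of Rbp7 binds retinol, the receptor of Rarb acts on transcription when retinoic acid is bound, and the enzyme of Cyp26b1 oxidises retinoic acid for removal. In developing cartilage, retinoic acid is known to hold back the early steps of chondrocyte differentiation. The local balance of Aldh1a and Cyp26 enzymes sets where retinoic acid acts.

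Promoter windows from RefSeq, on the build GRCm38.p6, 300 bases long and spanning a start site, were matched by symbol for 7 of the 9 genes, in 9 windows. No window was matched for Aldh1a3 and Crabp2. Of these, 4 windows are printed 5′ to 3′ on the strand of the gene: that of Rarb, since its retinoic acid response element is a textbook case, and those of the 3 genes with windows whose levels did not overlap between mutant and fl/fl libraries. Capitals mark the hexamer AGGTCA or its variants AGTTCA or else GGGTCA or else GGTTCA on either strand, the letters that retinoic acid receptors and their partners read.
Rarb, chr14:16575427-16575726, minus strand: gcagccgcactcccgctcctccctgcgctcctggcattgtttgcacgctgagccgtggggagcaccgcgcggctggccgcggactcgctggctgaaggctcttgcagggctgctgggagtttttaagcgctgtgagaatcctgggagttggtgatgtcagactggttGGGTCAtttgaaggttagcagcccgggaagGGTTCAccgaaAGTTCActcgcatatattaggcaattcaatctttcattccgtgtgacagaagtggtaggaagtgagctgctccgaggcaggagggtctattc
Aldh1a1, chr19:20601718-20602017, plus strand: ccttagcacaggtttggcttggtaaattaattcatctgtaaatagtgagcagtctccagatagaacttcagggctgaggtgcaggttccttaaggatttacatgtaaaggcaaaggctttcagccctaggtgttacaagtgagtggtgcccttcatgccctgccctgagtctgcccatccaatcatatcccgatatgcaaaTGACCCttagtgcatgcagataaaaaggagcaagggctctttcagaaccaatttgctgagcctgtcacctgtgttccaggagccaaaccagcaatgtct
Rbp7, chr4:149454919-149455218, minus strand: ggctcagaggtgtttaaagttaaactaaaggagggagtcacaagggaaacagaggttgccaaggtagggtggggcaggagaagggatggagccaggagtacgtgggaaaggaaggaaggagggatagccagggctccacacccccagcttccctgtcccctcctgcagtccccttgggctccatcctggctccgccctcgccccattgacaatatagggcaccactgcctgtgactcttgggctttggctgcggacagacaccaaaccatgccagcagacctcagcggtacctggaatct
Crabp1, chr9:54764498-54764797, plus strand: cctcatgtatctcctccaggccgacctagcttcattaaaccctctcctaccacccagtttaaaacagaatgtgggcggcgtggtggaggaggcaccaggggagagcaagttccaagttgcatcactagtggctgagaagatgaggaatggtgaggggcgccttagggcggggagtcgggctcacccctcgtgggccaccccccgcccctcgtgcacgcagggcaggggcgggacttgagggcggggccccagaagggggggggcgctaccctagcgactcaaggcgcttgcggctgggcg
The Rarb window held 2 of these hexamers as a direct repeat with 5 bases between them, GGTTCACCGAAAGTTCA, from 53 to 37 bases before the start site, and another hexamer further upstream. Such a repeat occurred in 32 of 32817 RefSeq windows, or 0.0975%. No window of the other 6 genes held a direct repeat with 1, 2 or 5 bases between, patterns found in 0.222%, 0.268% and 0.0975% of all windows. A single hexamer, which 43.7% of all windows held, stood in the printed Aldh1a1 window on the opposite strand, and the printed Rbp7 and Crabp1 windows held none. Aldh1a1 also had a window at chr19:20492333-20492632, which is not printed and held none. The letters GACCACCCA, which the GLI proteins of the hedgehog pathway bind, occurred in none of the 9 windows and in 0.253% of all windows. A match or its absence describes these letters in these windows only.

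Levels are in FPKM, a fragment count divided by transcript length and by library depth, so they can be compared between genes. Each library listed between 17761 and 18359 genes at 1 FPKM or more. The step size of the values gave an estimate of 1250000 to 1510000 counted fragments in the mutants and 1250000 to 1670000 in fl/fl. Ihh was listed at 2.18, 2.33 and 2.66 FPKM in mutant libraries 1 to 3, against 3.73, 2.51 and 3.74 FPKM in fl/fl libraries 1 to 3. Each mutant value for Ihh was therefore below those of fl/fl 1 and 3, while mutant 3 was above fl/fl 2, and the deleted part of the gene is not given. Gli1, a direct target of hedgehog signalling, was listed at 0.807, 0.168 and 0.573 FPKM in the mutants and at 9.47, 7.10 and 9.53 FPKM in fl/fl. Xist, transcribed from the inactive X chromosome, was at 0.577 to 0.984 FPKM in the mutants, at 29.5 and 29.2 FPKM in fl/fl 1 and 2 and at 0.608 FPKM in fl/fl 3, so the sexes were unequal between the groups. Of 13 chondrocyte markers, all were detected in every library except Matn1, at 0 in mutant 3, and 5 fell in the mutants. Their summed level was 231 to 280 FPKM in the mutants against 430 to 572 FPKM in fl/fl. Only 1 of the 13, Comp, had a positive log2 fold change, 1.56 ± 0.48 (SE). Comp was at 37.4, 23.0 and 91.9 FPKM in the mutants and at 22.6, 12.9 and 9.19 FPKM in fl/fl. Markers of skeletal muscle summed to 13364 to 24790 FPKM in the mutants and to 3091 to 7435 FPKM in fl/fl, more than the chondrocyte markers in every library, and 6 of 12 rose. Endothelial markers summed to 281 to 328 FPKM in the mutants and 102 to 165 FPKM in fl/fl, and 3 of 10 rose. In bulk tissue fewer cells of a type and less RNA per cell cannot be told apart.

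Of the 9 genes, 2 were higher in the mutants past the threshold used over all genes (limma, adjusted p below 0.05) and 2 were lower. Over all 18715 genes tested, 1.24% passed it in either direction, 0.775% higher and 0.465% lower in the mutants. The 4 genes were Aldh1a1 and Rbp7, higher, and Aldh1a3 and Crabp1, lower, and they were also the genes whose mutant and fl/fl libraries did not overlap. Such separation was seen in 19.2% of all genes tested. Since the genes were picked with this comparison known, these counts are given without a reading. The count of 4 became 1, Rbp7, without mutant 1, without fl/fl 1 or without fl/fl 2. Over all genes 18, 12 and 10 passed in these fits, against 232 as reported. None of the 9 passed with Xist or muscle markers as a covariate or with a replicate block. Over all genes 2 passed in each of those fits. A further fit left out fl/fl 1 and 2. It sets the mutants against fl/fl 3, the fl/fl library with a low Xist level like theirs, and its lone fl/fl library is assumed to vary like the mutants. Its log2 fold changes were 2.54 ± 0.42 for Aldh1a1, 1.82 ± 0.29 for Rbp7, -1.96 ± 0.38 for Aldh1a3 and -3.09 ± 0.43 for Crabp1 (SE).

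**Figure D1:**
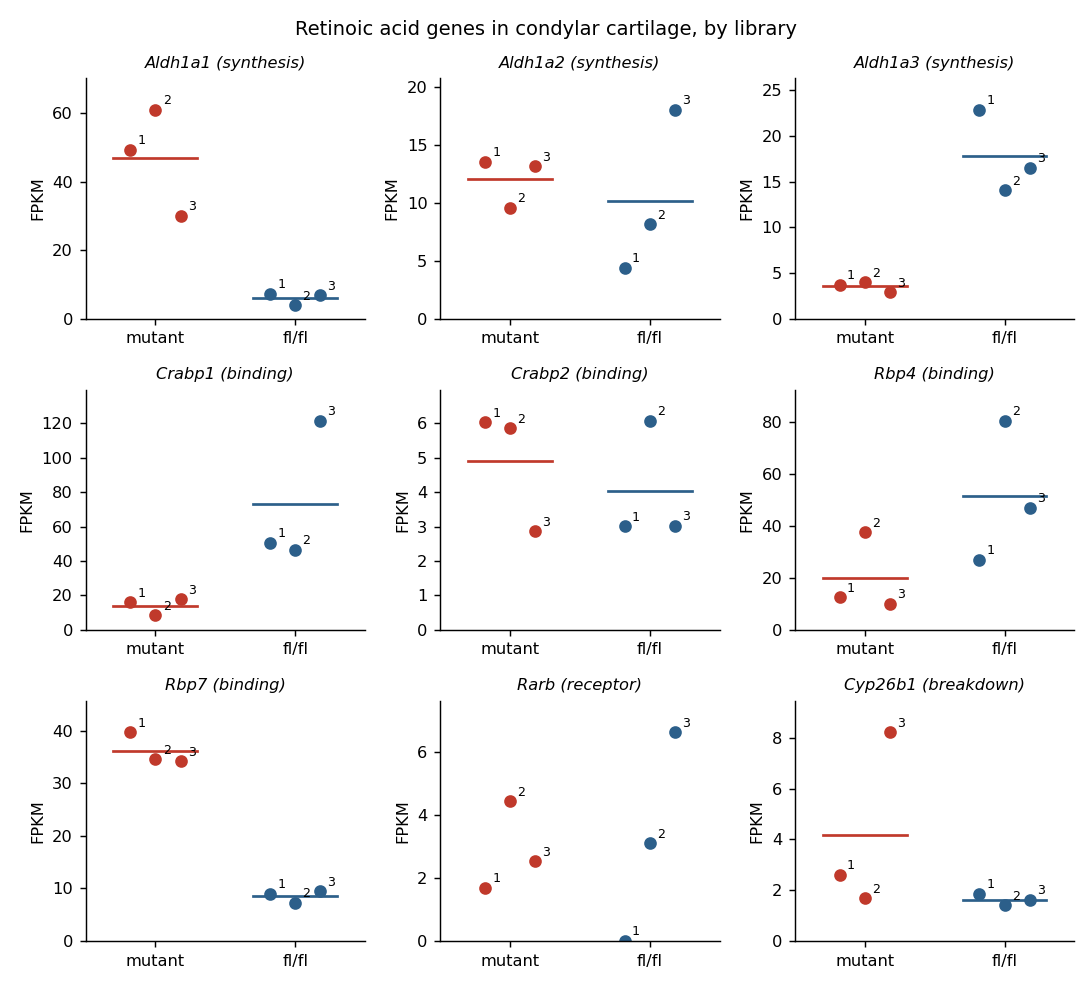
FPKM of each of the 9 genes in the 3 mutant libraries (left, red) and the 3 fl/fl libraries (right, blue) on a linear axis that starts at 0. Points are libraries with their replicate number and lines are group means, not drawn for Rarb. The groups do not overlap for Aldh1a1, Aldh1a3, Crabp1 and Rbp7.

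Among the synthesis enzymes, Aldh1a1 and Aldh1a3 differed in opposite directions. Aldh1a1, on chromosome 19 from 20492715 to 20643465 (mm10, plus strand), is a broadly expressed retinaldehyde dehydrogenase of many adult tissues. It was listed at 49.3, 61.0 and 30.03 FPKM in mutants 1 to 3, against 7.25, 3.84 and 6.88 FPKM in fl/fl 1 to 3. Every mutant library was above every fl/fl library, and the lowest mutant library, number 3, was still far above the highest fl/fl library. The means were 46.8 ± 15.6 FPKM in the mutants and 5.99 ± 1.87 FPKM in fl/fl (SD, n = 3 each), a 7.81-fold difference, and the log2 fold change was 2.75 ± 0.31 (SE, on log2(FPKM + 1)). The values were whole multiples of what 1 fragment is worth and corresponded to 404 fragments in the mutants and 53 in fl/fl, a depth-scaled ratio of 7.79 with a 95% interval of 5.84 to 10.6 that covers counting error only. Of the 50-base stretches in its annotated exons, 3.06% also occur elsewhere, in the neighbouring paralogue Aldh1a7, which was listed at 0.356 to 1.13 FPKM in the mutants and 1.13 to 2.27 FPKM in fl/fl.

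Aldh1a3, on chromosome 7 from 66390890 to 66427517 (minus strand), makes retinoic acid in the developing face, eye and nose. Its level was 3.71, 3.99 and 2.89 FPKM in the mutants, against 22.9, 14.04 and 16.5 FPKM in fl/fl. All 3 mutant libraries lay close together and below all 3 fl/fl libraries. The means were 3.53 ± 0.57 FPKM in the mutants and 17.8 ± 4.56 FPKM in fl/fl (SD, n = 3 each), 5.04-fold lower in the mutants, with a log2 fold change of -2.03 ± 0.26 (SE). These levels stood for 53 fragments in the mutants and 270 in fl/fl, with a depth-scaled ratio of 0.201 and an interval of 0.146 to 0.270. Aldh1a2, on chromosome 9 from 71215789 to 71296243 (plus strand), is the main retinoic acid source of the early embryo. Levels of Aldh1a2 were 13.6, 9.58 and 13.2 FPKM in the mutants and 4.399, 8.18 and 18.05 FPKM in fl/fl, so the groups overlapped, and fl/fl alone spanned all of the mutant values. Its log2 fold change was 0.40 ± 0.42 (SE), smaller than its error, and it was -0.55 with fl/fl 1 and 2 left out.

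The sum of the 3 enzymes' transcripts was 66.6, 74.5 and 46.1 FPKM in the mutants, against 34.5, 26.1 and 41.5 FPKM in fl/fl. These sums did not overlap, although mutant 3 and fl/fl 3 came close. What made up the sum differed more than its size. Aldh1a1 held 74.1%, 81.8% and 65.2% of it in the mutants and 20.99%, 14.7% and 16.6% in fl/fl. Aldh1a3 held 5.58%, 5.36% and 6.28% in the mutants, against 66.3%, 53.9% and 39.9% in fl/fl, where it was the most abundant of the 3 in libraries 1 and 2 and Aldh1a2 was in library 3. The share of Aldh1a2 overlapped between the groups. The ratio of Aldh1a1 to Aldh1a3, a quantity within each library, was 13.3, 15.3 and 10.4 in the mutants, against 0.317, 0.273 and 0.416 in fl/fl. The mean mutant shares were 73.7 ± 8.32% for Aldh1a1 and 5.74 ± 0.483% for Aldh1a3, against 17.4 ± 3.21% and 53.3 ± 13.2% in fl/fl (SD, n = 3 each).

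**Figure D2:**
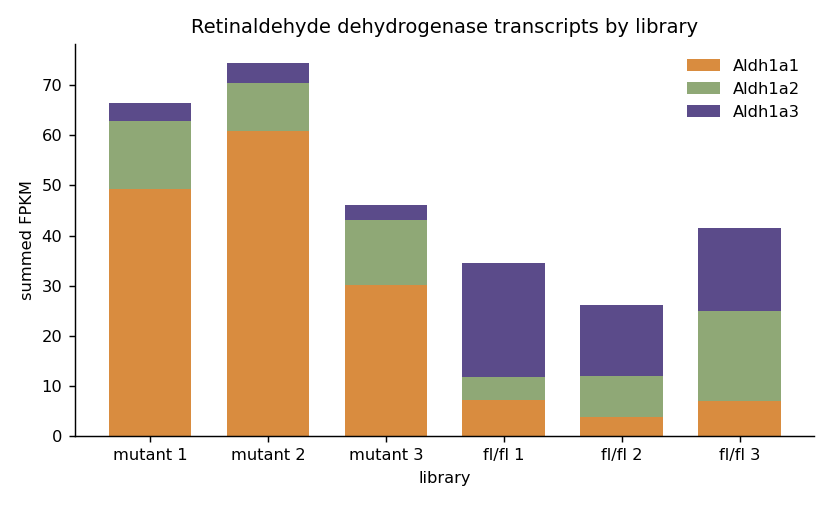
Stacked FPKM of Aldh1a1, Aldh1a2 and Aldh1a3 in each library, mutants left and fl/fl right, from 0. Aldh1a1 fills most of each mutant bar (65.2% to 81.8%) and the smaller part of each fl/fl bar (14.7% to 20.99%).

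Summed marker levels of muscle, endothelium and cartilage also differed between the groups, while those of fat overlapped. These markers are set beside Aldh1a1 and Aldh1a3 here. The level of Aldh1a1 equalled 0.234%, 0.246% and 0.225% of the summed skeletal muscle markers in the mutants and 0.132%, 0.124% and 0.0925% in fl/fl. The ratio of the mutant to the fl/fl mean of these percentages was 2.02, against the 7.81-fold difference of the gene itself. Taken against the adipocyte markers in the same way the ratio was 1.94, and against the endothelial markers it was 3.19. With the muscle markers as a covariate the log2 fold change of Aldh1a1 was 1.14, less than its value in any other fit tried. Adipocyte markers summed to 335 to 781 FPKM in the mutants and 82.2 to 338 FPKM in fl/fl. Fabp4 made up most of the summed level, so the ratio of 1.94 rests mainly on that gene. Of these 8 markers, 1 rose, Pnpla2. A positive log2 fold change was found for 6 of them, and a negative one for Cidec (-0.45) and Lep (-0.46). Cfd was at 0 in mutant 2, fl/fl 1 and fl/fl 2, and Retn was at 0 in fl/fl 1 and 2. Relative to the summed chondrocyte markers, Aldh1a3 was at 1.61%, 1.48% and 1.04% in the mutants and at 4.70%, 3.27% and 2.89% in fl/fl, lower in each mutant library than in each fl/fl library. The sum includes Comp, which was higher in the mutants and lowers their percentages more than those of fl/fl. The part of tissue make-up in these differences was not tested.

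**Figure D3:**
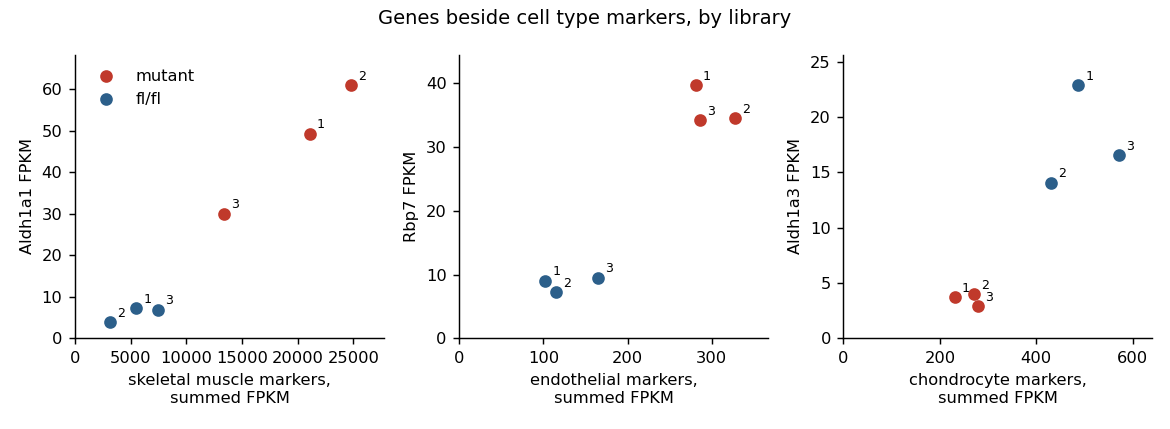
FPKM of Aldh1a1, Rbp7 and Aldh1a3 against the summed FPKM of skeletal muscle, endothelial and chondrocyte markers, by library (mutant red, fl/fl blue, numbers are replicates). Mutant libraries lie at higher muscle and endothelial sums and at lower chondrocyte sums than all fl/fl libraries.

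Of the 2 cellular retinoic acid binding proteins, Crabp1 was lower in the mutants. Crabp1, on chromosome 9 from 54764748 to 54773110 (plus strand), is known from neural crest derived mesenchyme. Crabp1 reached 16.0, 8.42 and 17.8 FPKM in the mutants, against 50.6, 46.5 and 121 FPKM in fl/fl. The groups did not overlap, and fl/fl 3 stood above the other two fl/fl libraries. The means were 14.1 ± 4.98 FPKM in the mutants and 72.9 ± 42.1 FPKM in fl/fl (SD, n = 3 each), 5.18-fold lower in the mutants, with a log2 fold change of -2.21 ± 0.40 (SE). Crabp1 did not pass the threshold without mutant 1, mutant 2, fl/fl 1 or fl/fl 2, or with no filter on low values. Nor did it pass with a replicate block or with Xist or muscle markers as a covariate. Relative to the chondrocyte markers, again with Comp in the sum, Crabp1 stood at 6.92%, 3.11% and 6.37% in the mutants and at 10.4%, 10.8% and 21.2% in fl/fl. Markers of the fibrous layer, where 1 of 10 rose and 2 fell, summed to 2837 to 5865 FPKM in the mutants and 4198 to 5808 FPKM in fl/fl. Crabp2, on chromosome 3 from 87948666 to 87953376 (plus strand), hands retinoic acid to its nuclear receptors. Its level was 6.04, 5.86 and 2.86 FPKM in the mutants and 3.02, 6.07 and 3.02 FPKM in fl/fl, overlapping values that rested on 16 fragments in the mutants and 13 in fl/fl. The depth-scaled ratio of 1.26 had an interval of 0.567 to 2.84, which includes 1 and covers counting error only. Crabp1 made up 72.6%, 59.0% and 86.2% of the summed Crabp transcripts in the mutants and 94.4%, 88.5% and 97.6% in fl/fl.

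The 2 retinol carriers differed from each other. Rbp7, on chromosome 4 from 149449687 to 149454978 (minus strand), is an intracellular retinol binding protein found in adipose and endothelial cells. Rbp7 stood at 39.7, 34.5 and 34.2 FPKM in the mutants, against 9.01, 7.26 and 9.48 FPKM in fl/fl. Within each group its values were close together, and the groups lay far apart. The means were 36.1 ± 3.10 FPKM in the mutants and 8.58 ± 1.17 FPKM in fl/fl (SD, n = 3 each), a 4.21-fold difference, and the log2 fold change was 1.96 ± 0.20 (SE). The transcript is short, so these levels stood for only 65 fragments in the mutants and 16 in fl/fl, a depth-scaled ratio of 4.15 with an interval of 2.37 to 7.69. As a percentage of the summed endothelial markers Rbp7 was at 14.1%, 10.5% and 12.0% in the mutants and at 8.84%, 6.31% and 5.75% in fl/fl. These percentages were separate between the groups, whereas those of the muscle and of the adipocyte markers overlapped. Rbp4, on chromosome 19 from 38116629 to 38125281 (minus strand), encodes the retinol carrier of blood plasma, made mainly in liver and also in fat. Rbp4 stood at 12.5, 37.7 and 10.1 FPKM in the mutants and at 26.98, 80.5 and 47.1 FPKM in fl/fl. The groups overlapped because mutant 2 was above fl/fl 1, and library 2 was the highest of its group in both. The log2 fold change was -1.41 ± 0.51 (SE) and did not pass the threshold. Its fragments numbered 71 in the mutants and 176 in fl/fl, with a depth-scaled ratio of 0.412 and an interval of 0.308 to 0.546 for counting error alone. The ratio of Rbp4 to Rbp7 was 0.316, 1.09 and 0.294 in the mutants and 2.99, 11.1 and 4.96 in fl/fl.

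The receptor and the breakdown enzyme were listed at low levels, with groups that overlapped. Rarb, on chromosome 14 from 16430839 to 16819156 (minus strand), encodes a retinoic acid receptor that is itself induced by retinoic acid through the repeat printed above. It was listed at 1.69, 4.44 and 2.54 FPKM in the mutants and at 0, 3.11 and 6.65 FPKM in fl/fl. The fl/fl libraries alone held both the lowest and the highest value. The log2 fold change was 0.24 ± 0.68 (SE), and between -1.04 and 1.10 under the other fits. Of the 50-base stretches in its annotated exons, 34.1% are shared with other genes, most of them with Top2b on the opposite strand, and the library kits did not keep strand. Reads of the 2 genes therefore cannot be told apart there. Cyp26b1, on chromosome 6 from 84571414 to 84593908 (minus strand), is the main retinoic acid hydroxylase of limb and skeletal tissue in mouse embryos. Cyp26b1 stood at 2.61, 1.68 and 8.23 FPKM in the mutants and at 1.86, 1.40 and 1.63 FPKM in fl/fl. Mutant 3 stood apart, and mutant 2 lay within the fl/fl values. The log2 fold change was 0.77 ± 0.46 (SE), and 0.24 without mutant 3.

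Low values call for caution in these libraries. Between 39.2% and 42.8% of 1120 olfactory receptor genes, which cartilage is not known to use, were listed at 1 FPKM or more, and their 90th percentile was 7.05 to 8.69 FPKM in the mutants and 6.49 to 8.56 FPKM in fl/fl. Crabp2, Cyp26b1 and Rarb lay above 58.9% to 89.8% of the olfactory genes in the mutants and above 0% to 90.4% in fl/fl. Aldh1a3 exceeded 73.9% to 82.1% of them in the mutants and at least 95.8% in fl/fl. Aldh1a1 exceeded at least 99.6% in the mutants and 78.7% to 90.6% in fl/fl. Rbp7 exceeded at least 99.6% in the mutants and 87.5% to 94.3% in fl/fl. Crabp1 exceeded 91.7% to 97.4% in the mutants, with the lowest share in mutant 2, and at least 99.8% in fl/fl. The levels of Aldh1a3 in the mutants, of Aldh1a1 and Rbp7 in fl/fl and of Crabp1 in mutant 2 were thus in the range of these olfactory genes.

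Genes of the retinoid pathway beyond the 9 did not pass the threshold in the fit as reported. A list of 36 such genes, for uptake, oxidation, reception and breakdown, had 34 members tested, of which 0 rose and 0 fell by limma with Benjamini-Hochberg adjustment over all genes. The list was drawn up with earlier results of these libraries known. It leaves out the 9, which were picked with this comparison in view, so its counts cannot be set against theirs. At an unadjusted p below 0.05 there were 7 of the 34, beside 2630 of all 18715 genes tested (14.1%). The groups were separate for 4 of the 34, beside 19.2% of all genes. The median log2 fold change of the 34 was 0.11, with a range of -1.01 to 2.12, beside a median of 0.00085 over all genes tested. The nearest to the threshold was Rxrg, the gene of a partner receptor that skeletal muscle expresses. It was listed at 16.3, 12.5 and 11.7 FPKM in the mutants and at 2.84, 0.477 and 5.34 FPKM in fl/fl, with a log2 fold change of 2.12 ± 0.48 (SE) and an adjusted p of 0.0717 by limma. Every mutant library was above every fl/fl library. Under the other fits its adjusted p ranged from 0.0411 to 0.991. Dhrs9, a dehydrogenase that can oxidise retinol, was at 11.2, 11.8 and 12.4 FPKM in the mutants and at 7.999, 6.17 and 5.61 FPKM in fl/fl (log2 fold change 0.76 ± 0.22, limma adjusted p = 0.150). Adh1, an alcohol dehydrogenase that oxidises retinol, was at 5.57, 9.26 and 1.76 FPKM in the mutants and listed at 0, 0 and 2.32 FPKM in fl/fl. These 2 groups of Adh1 values overlapped, and its limma adjusted p was 0.184. Rdh11, a retinaldehyde reductase, was at 4.59, 4.24 and 6.76 FPKM in the mutants and at 8.15, 12.8 and 8.80 FPKM in fl/fl (log2 fold change -0.82 ± 0.27, limma adjusted p = 0.208).

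By role, an unadjusted p below 0.05, which 14.1% of all genes had, was found for 0 of the 8 tested genes of uptake, transport and storage. It was found for 4 of the 15 dehydrogenases and reductases of retinol and retinaldehyde and for 2 of the 7 receptors and corepressors. The 1 carrier of retinoic acid to another receptor also had it, lower in the mutants (log2 fold change -0.63). It was found for 0 of the 2 further retinaldehyde dehydrogenases and 0 of the 1 breakdown gene tested. Differences between these roles were not tested. Rdh10, the main retinol dehydrogenase of the mouse embryo, was chosen after its values were seen. It was listed at 11.0, 9.44 and 11.4 FPKM in the mutants and at 11.3, 14.4 and 9.02 FPKM in fl/fl, so the step before the Aldh1a enzymes showed overlapping levels of this gene. The receptor Rarg, likewise chosen afterwards, was at 9.12, 13.96 and 12.0 FPKM in the mutants and at 12.6, 11.1 and 13.3 FPKM in fl/fl.

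**Figure D4:**
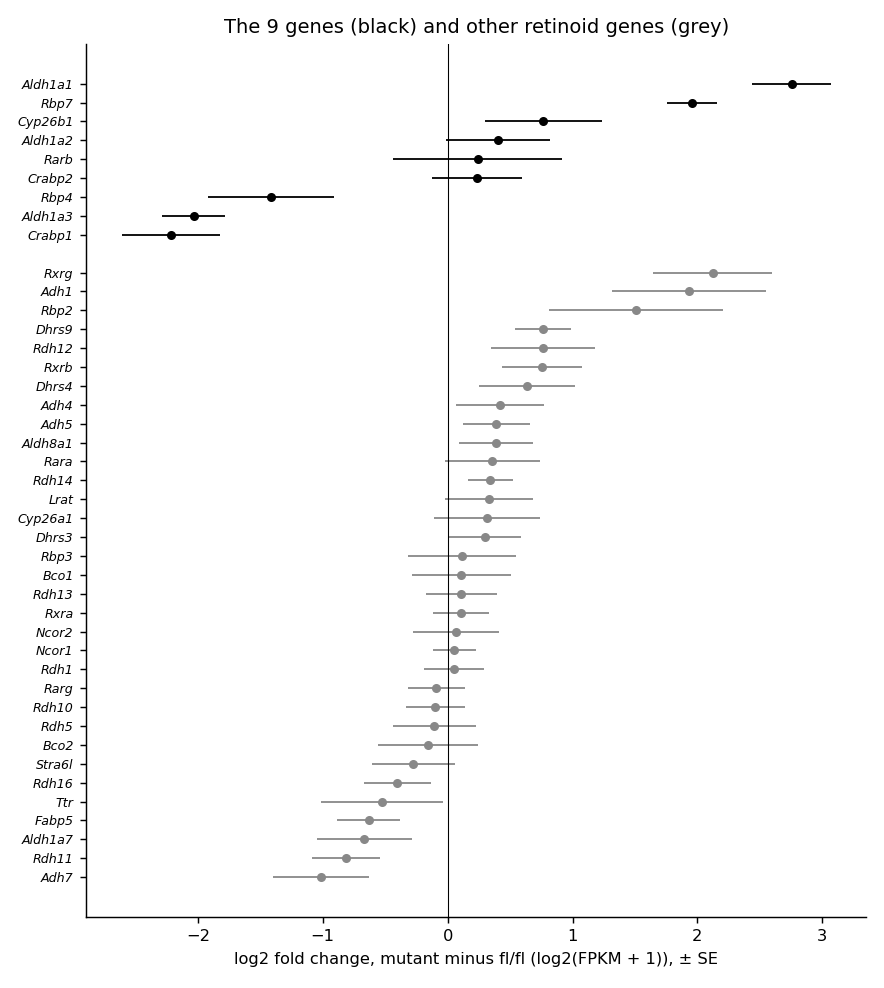
Log2 fold changes, mutant minus fl/fl, on log2(FPKM + 1), of the 9 genes (black) and of other retinoid genes (grey); bars are SE. The 9 genes, picked with this comparison known, include Aldh1a1 at 2.75 and Crabp1 at -2.21. The grey genes, listed without the 9, run from -1.01 to 2.12.

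Genes known to respond to retinoic acid were examined next, in a list that was also drawn up with earlier results of these libraries known. Of its 19 genes, some of which, such as Dhrs3, Stra6 and Cyp26a1, also stand in the preceding list, 16 were tested, and 0 rose and 0 fell by limma. At an unadjusted p below 0.05 there were 3 of the 16, beside 14.1% of all genes tested, and the median log2 fold change was 0.29. Tgm2, a transglutaminase induced by retinoic acid in many cells, was listed at 17.9, 18.2 and 22.5 FPKM in the mutants, against 7.70, 11.7 and 7.82 FPKM in fl/fl. The groups did not overlap, and its log2 fold change was 1.04 ± 0.23 (SE) with a limma adjusted p of 0.0705, ranging from 0.0430 to 0.687 under the other fits. Zfp703, a zinc finger gene, was at 9.68, 6.46 and 6.24 FPKM in the mutants and at 2.35, 2.60 and 4.76 FPKM in fl/fl (limma adjusted p = 0.173). Rarres2, which encodes the secreted protein chemerin, was at 39.0, 29.0 and 37.0 FPKM in the mutants and at 9.74, 12.6 and 32.4 FPKM in fl/fl (limma adjusted p = 0.242). Mutant 2 was below fl/fl 3 for Rarres2. The differences of these 3 genes did not pass the threshold, which does not show that the groups were equal.

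The order of the 9 genes by level also differed between libraries. Aldh1a1 was the most abundant of them in mutants 1 and 2 and Rbp7 in mutant 3, whereas Crabp1 was the most abundant in fl/fl 1 and 3 and Rbp4 in fl/fl 2. Across the 6 libraries, which share 2 groups, the log2 levels of Aldh1a1 and Rbp7 had a Pearson correlation of 0.977, and those of Aldh1a3 and Crabp1 one of 0.851. Aldh1a3 and Rbp7 had -0.954. These describe 6 points that fall into 2 groups. Among 10288 genes with a mean of at least 5 FPKM, the 2 with the pattern most like each gene were found by the same correlation. For Aldh1a1 they were Plin5 (0.998), a lipid droplet protein of oxidative tissue, and Pygm (0.997), the muscle glycogen phosphorylase. Pygm was at 167, 177 and 100.6 FPKM in the mutants and at 36.9, 24.4 and 39.9 FPKM in fl/fl. For Rbp7 they were Ppp1r14c (0.994) and Prg4 (0.992), the gene of the joint lubricant lubricin, which was at 50.5, 59.2 and 51.1 FPKM in the mutants and at 12.4, 9.69 and 14.1 FPKM in fl/fl. For Aldh1a3 they were Lmnb2 (0.997), a nuclear lamin, and Car12 (0.991), a carbonic anhydrase. For Crabp1 they were Mthfd2 (0.995), an enzyme of mitochondrial folate metabolism, and Lgals1 (0.993), a galectin. Cyp26b1 was most like C1qtnf2 (0.9997) and A4galt (0.993), which were also highest in mutant 3, C1qtnf2 at 61.8 FPKM there. For Aldh1a2 the 2 genes were Upp1 (0.995) and Nol8 (0.979), and for Rbp4 they were Gga1 (0.989) and Snrnp70 (0.985). For Rarb they were Marc2 (0.992) and Hfe (0.986), and for Crabp2 they were Bc1 (0.994) and Stfa2 (0.990), both at 0 in mutant 3, fl/fl 1 and fl/fl 3.

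The 4 genes past the threshold had the same direction in each of the 16 other fits tried. This is no test in most of these fits. Filters, moderation and the replicate block left the fold changes as reported. Separate groups fix the direction where a library is left out or the pseudocount is changed. The direction was open to change mainly where a covariate was added. Under these fits the log2 fold change of Aldh1a1 lay between 1.14 and 3.04, that of Rbp7 between 1.60 and 2.07, that of Aldh1a3 between -2.70 and -1.85 and that of Crabp1 between -3.09 and -1.78. Rbp4 lay between -1.99 and -1.03, Crabp2 between 0.08 and 0.52 and Cyp26b1 between 0.24 and 2.35. Aldh1a2 and Rarb changed sign between fits, as described above.

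**Figure D5:**
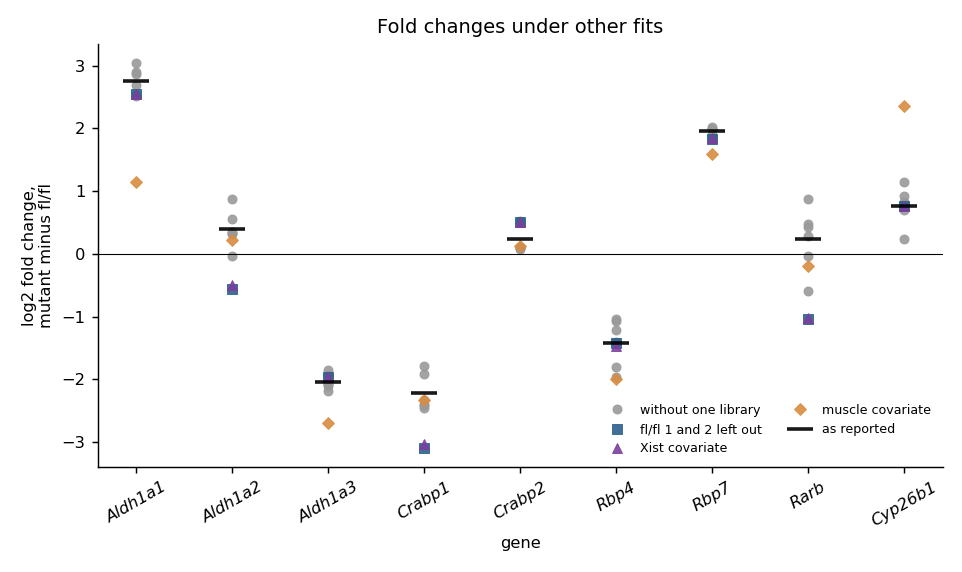
Log2 fold change (mutant minus fl/fl) of each gene as reported (black bar) and under other fits: without one library (grey), with fl/fl 1 and 2 left out (blue), with Xist (purple) or muscle markers (orange) as a covariate. Aldh1a1 and Rbp7 stay above 0 and Aldh1a3 and Crabp1 below 0, and Aldh1a1 is lowest, at 1.14, with the muscle covariate.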

How the data were processed

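The deposited files hold 1 value per gene symbol and library, taken here as FPKM made by the authors: no header names the unit, and it was inferred from the values and from Cufflinks 2.2.1 among the submitters' processing notes. Those notes also name TopHat2 2.0.13, Bowtie2 2.2.3, SAMtools 0.1.19 and mm10. No source used here gives their order, settings or annotation. Per the labels' protocols, RNA was extracted with an miRNeasy kit and libraries were made with SMART-Seq HT and Nextera kits, which keep no strand.

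From the FPKM, genes at 1 FPKM or more in at least 3 libraries (18715) were fitted as log2(FPKM + 1) with limma 3.58.1 (R 4.3.3) (trended, robust moderation; genotype group the sole model term), with Benjamini-Hochberg adjustment over every gene fitted and a threshold of 0.05. The pseudocount understates changes of low genes. The limma script was tested on simulated data. The 9 genes, the lists and markers were chosen with earlier results of these data known. Named genes were the 9, the 4 with the smallest p in each further list, and the 2 genes most correlated with each of the 9, leaving out symbols that start with Gm and a digit, Mir or Snor or end in Rik. Rdh10 and Rarg were added after their values were seen, and 1 gene that the rule names is not reported here. Fragments were recovered from the steps of low values, searching up to 300 with a tolerance of 0.05 of a whole number. They came out whole for 6 of the 9 genes. Total fragments were estimated from 1881 genes with 1 transcript and GENCODE M21 lengths. Positions and shared 50-base stretches are from GENCODE M21. Alternatives were other scalings, filters and a pseudocount, moderation, a replicate block, covariates, and leaving out libraries.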

Additional observations from a re-analysis of the deposited data

How the results depend on the processing

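The number of genes past the threshold depended on the fit: 232 as reported, 406 after quantile normalization, 440 with a filter at 5 FPKM, 133 with no filter, 5 with fl/fl 1 and 2 left out, and 2 each with Xist or muscle markers as a covariate. Without 1 library it ranged from 10 (without fl/fl 2) to 419 (without mutant 3), with 18 without mutant 1, 60 without mutant 2 and 12 without fl/fl 1. Of the 9 genes, 4 passed as reported, 0 with Xist or muscle markers as a covariate or with fl/fl 1 and 2 left out, and 1 to 4 without 1 library. The sign of these 4 was the same in 64 of 64 values. This is no test in most fits, since filters, moderation and the replicate block left these fold changes as reported. Separate groups fix the sign where a library is left out or the pseudocount is changed. The sign was open to change mainly where a covariate was added. Of the other retinoid genes 1 passed with a filter at 5 FPKM (Rxrg) and 0 to 2 without 1 library (Rxrg and Rbp2 without fl/fl 3). Of the responsive genes 1 passed with that filter (Tgm2) and 0 to 1 without 1 library (Rarres2 without fl/fl 3). The cause was not tested. The labels do not state whether same-numbered libraries are paired. Over the genes tested, deviations of same-numbered libraries from their group means had correlations of 0.0063, -0.0162 and -0.0091. Those of differently numbered libraries ran from -0.0089 to 0.0175. Low correlations over all genes cannot show that the libraries are unpaired. With a replicate block 2 genes passed, 0 of the 9, 0 of the other retinoid and 0 of the responsive genes. Rarb and Cyp26b1 gave no value with the filter at 5 FPKM. Few fragments limit Crabp2 and Rbp7, and for Crabp1, Rarb and Cyp26b1 no fragment numbers were recovered.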
